A study of Mus musculus with 5 samples.

Results

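The genes that make, take up and export cholesterol were followed in EpH4 cells, an immortalized line of mouse mammary epithelial cells, after Mef2d had been targeted with CRISPR-Cas9. The set was a list of 29 genes named for their known roles, of which 29 were among the 12934 genes listed in the deposited counts, and 29 of 29 remained among the 12483 genes tested. Of these, 7 encode enzymes of the mevalonate steps, 1 an enzyme of the geranylgeranyl branch (GGPP branch), 11 enzymes of the sterol steps, 4 proteins that control the transcription factor SREBP2, 4 proteins of uptake and intracellular transport, and 2 export pumps. All cells carried Cas9. The control group (sgControl, 3 libraries) had received a control guide RNA, and the other group (sgMef2d, 2 libraries) a guide RNA against Mef2d, the gene of a transcription factor of the MEF2 family. Both groups were grown in the same serum-containing medium, and the methods describe stable clones selected with antibiotics after infection. The labels do not say whether the sgMef2d libraries came from different guides or from separate cultures, so the p-values below measure the spread between these libraries, which may be technical.

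Cells build cholesterol from acetyl-CoA through mevalonate, farnesyl diphosphate, squalene and lanosterol. When sterols in the endoplasmic reticulum run low, the escort protein SCAP carries SREBP2 to the Golgi, where it is cleaved into an active transcription factor that raises the genes of synthesis and uptake. INSIG proteins hold SCAP back when sterols are plentiful, and the liver X receptors (LXR), which bind oxidized sterols, raise the export pumps and Mylip.

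Library totals ranged from 13601145 to 20498563 counts, and a cholesterol gene had between 48 and 5510 counts in a library. Mef2d itself reached between 64.3 and 76.9 CPM (counts brought to a common library total with edgeR's TMM factors, on the usual CPM scale) in sgControl and 64.2 and 65.8 CPM in sgMef2d (log2 change -0.12, edgeR adjusted p = 0.400, where edgeR is its quasi-likelihood test here and below), and without sgControl replicate 1 the change was -0.19 (edgeR adjusted p = 0.00550). Counts per gene do not show whether its coding sequence was cut. The authors reported that an immunoblot of their targeted cells showed no MEF2D protein. Of 8 markers of mammary epithelium 5 were listed, among them Epcam, Cdh1, Krt8 and Krt18 at 234 CPM or more in every library. Krt19, Elf5 and Csn2 were not among the genes analysed here. Krt18 was lower in sgMef2d (log2 change -0.26, edgeR adjusted p = 0.0207), and the log2 changes of Krt7 (-0.15), Krt8 (0.00087), Epcam (0.13) and Cdh1 (0.13) did not pass, with both sgMef2d libraries above all controls in Epcam and Cdh1 and below them in Krt7. Of the markers of other cell types, 5 of 7 for fibroblasts, 3 of 5 for immune cells, 1 of 4 for adipocytes and 0 of 3 for endothelium were listed. The fibroblast markers summed to between 641 and 765 CPM in sgControl and between 603 and 645 CPM in sgMef2d, with Col1a2 lower (log2 change -0.54) and Dcn higher (log2 change 1.23). The immune markers summed to between 3.41 and 4.18 CPM in sgControl and 4.83 and 5.12 CPM in sgMef2d, and Fabp4, the adipocyte marker listed, to between 2.42 and 3.80 CPM and 1.18 and 1.48 CPM. The defining markers Ptprc, Pecam1 and Adipoq were not among the genes analysed here, and the part of other cell types in the results was not tested. In bulk RNA, fewer cells of a type and less RNA per cell cannot be told apart. sgControl replicate 1 stood apart: the chi-square of its counts against the other sgControl libraries was 10.6 and 13.6 times its degrees of freedom, a ratio near 1 being what counting error gives, compared with 1.99 between those libraries, 2.03 within sgMef2d and 10.9 to 13.0 across groups. Results are therefore also given without it.

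Most of the cholesterol genes were slightly lower in the sgMef2d cells, and few of them passed the test for a single gene. The fitted log2 fold change was below 0 in 26 of 29 genes, against 49.3% of all genes tested, with a median of -0.12, where the median of all genes tested was 0.0031. Both sgMef2d libraries lay below all 3 sgControl libraries in 16 of 29 genes (55.2%), where 20.5% of all genes tested did so, and above all of them in 2 genes, where 20.6% of all genes did so. At an adjusted p below 0.05 (edgeR's quasi-likelihood test, Benjamini-Hochberg over all genes tested), 3 genes were lower, Idi1, Hmgcs1 and Insig1, and 1 was higher, Abcg1. These were 10.3% and 3.45% of the 29 genes, against 4.28% of all genes called lower, 3.67% called higher and 7.95% called in either direction. At an unadjusted p below 0.05, 9 cholesterol genes were lower and 1 was higher, against 12.0% and 11.2% of all genes. Which library was left out set the calls. Without sgControl replicate 1, 9 cholesterol genes were called lower (14.8% of all genes were) and 1 higher (14.6%). Without sgControl replicate 2 no cholesterol gene was called, while 2.44% of all genes were lower and 2.4% higher. Without sgControl replicate 3 Idi1 alone was called, against 3.37% of all genes lower and 3.14% higher. No cholesterol gene was called without sgMef2d replicate 1 (0.812% of all genes lower, 1.06% higher) or replicate 2 (0.758% and 1.07%). Genes that do not overlap with all libraries cannot overlap with fewer, so their number can only stay or grow when a library is left out: 19 genes lay below the remaining controls without sgControl replicate 1 (30.4% of all genes did, and 31.3% lay above), 19 without sgControl replicate 2 (24.2% and 24.8%), 19 without sgControl replicate 3 (25.4% and 25.3%), 19 without sgMef2d replicate 1 (29.7% and 30.6%) and 20 without sgMef2d replicate 2 (28.3% and 28.5%).

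**Figure D1:**
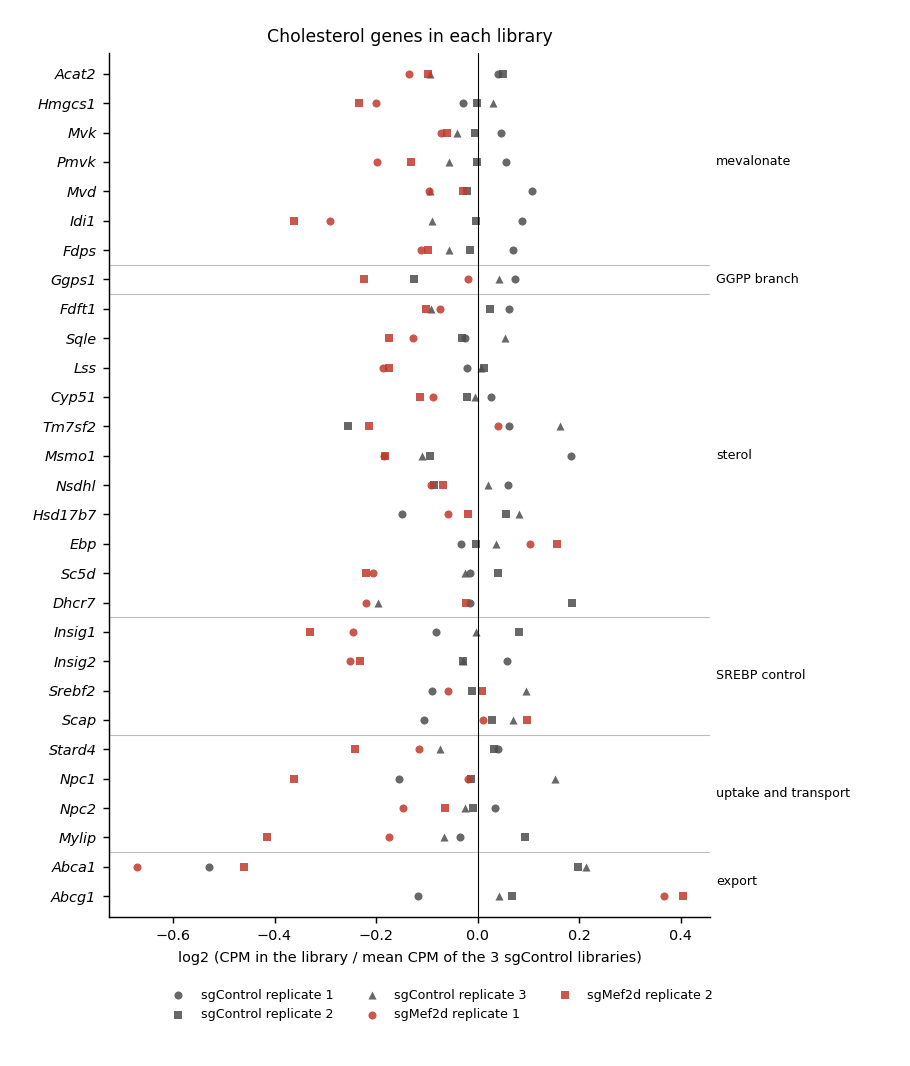
Level of the 29 cholesterol genes in each library, as log2 of the CPM over the mean CPM of the 3 sgControl libraries (horizontal axis), grouped by role from top to bottom; grey symbols are sgControl and red symbols sgMef2d libraries, with a shape for each replicate. In 16 genes both red symbols lie left of all grey ones, in Ebp and Abcg1 both lie right of them, and in the other 11 genes they overlap.

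Promoter sequences are shown for the 3 genes that fell in the test below and for the export pump Abca1, because the genes of synthesis are known to share binding sites of SREBP2 and of its partner NF-Y near their starts. RefSeq windows of 300 bases (250 before to 50 after a transcript start, build GRCm38.p6) matched 23 of the 29 genes, with 29 windows, and Fdps, Fdft1, Sqle, Stard4, Npc1 and Abcg1 had no entry. The motifs were searched on both strands, and matches of different motifs were allowed to overlap. The printed stretches are the 250 bases before the start, 5′ to 3′ on the strand of the gene, and capitals mark the SREBP motif TCACNCCAC, the NF-Y motif CCAAT and the E-box CACGTG on either strand, so that CCAAT on the opposite strand reads ATTGG. They lie at chr13:119690101-119690350 (Hmgcs1, plus strand), chr13:8885356-8885605 (Idi1, plus), chr5:28071162-28071411 (Insig1, plus) and chr4:53159896-53160145 (Abca1, minus). The starts are those of RefSeq. By the GENCODE coordinates given below for the genes, the ends of the Idi1 and Insig1 stretches lie inside the genes.
Hmgcs1: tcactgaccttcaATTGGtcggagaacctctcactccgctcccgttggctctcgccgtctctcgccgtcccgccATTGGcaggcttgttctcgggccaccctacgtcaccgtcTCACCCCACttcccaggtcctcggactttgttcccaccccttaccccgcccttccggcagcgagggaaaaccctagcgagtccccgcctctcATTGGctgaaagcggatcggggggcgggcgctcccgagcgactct
Idi1: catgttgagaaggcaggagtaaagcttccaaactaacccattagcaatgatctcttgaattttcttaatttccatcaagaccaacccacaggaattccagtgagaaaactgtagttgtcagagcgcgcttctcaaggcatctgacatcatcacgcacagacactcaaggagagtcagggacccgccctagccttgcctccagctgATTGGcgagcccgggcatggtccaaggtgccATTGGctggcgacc
Insig1: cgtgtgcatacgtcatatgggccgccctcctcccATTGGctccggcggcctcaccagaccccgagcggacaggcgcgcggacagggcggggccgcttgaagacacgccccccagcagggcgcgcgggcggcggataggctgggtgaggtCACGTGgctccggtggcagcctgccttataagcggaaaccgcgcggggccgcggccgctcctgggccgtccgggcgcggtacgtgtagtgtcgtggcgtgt
Abca1: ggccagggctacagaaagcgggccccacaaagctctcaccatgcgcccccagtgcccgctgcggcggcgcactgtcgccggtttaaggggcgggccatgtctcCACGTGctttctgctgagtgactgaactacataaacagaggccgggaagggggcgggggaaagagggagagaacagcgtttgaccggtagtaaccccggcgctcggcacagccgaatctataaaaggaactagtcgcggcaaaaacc

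The match to TCACNCCAC in Hmgcs1 lay at -137 to -129, counted from the start, and Hmgcs1 was the 1 gene of the 23 with this motif, which 1.24% of all 32851 windows hold. One of its CCAAT matches lay at -45 to -41, the position of a CCAAT in Idi1 as well. CCAAT was present for 20 of the 23 cholesterol genes (87.0%), against 41.1% of all genes with a window, 43.8% of the 9359 genes tested here that matched a window by symbol, and 37.4% of all windows. The GC box GGGCGG, a site of SP1, was present for 21 of the 23 genes (91.3%), against 70.2% of the genes tested, 38.2% of all genes and 35.7% of all windows. The E-box CACGTG was present for 6 genes (26.1%), among them Insig1 at -101 to -96 and Abca1 at -147 to -142, against 12.1% of the genes tested and 7.15% of all windows. Matched to its consensus with no mismatch, the MEF2 motif was found for 0 of the 23 genes and in 3.19% of all windows (1.92% of the genes tested), and the exact consensus of the LXR direct repeat for 0 of the 23 genes and in 0.0152% of all windows. Elements that depart from the consensus by even a single base were not counted. A match is a description of the letters and not a binding site, and the absence of a match speaks only of these letters in these windows.

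The mevalonate steps, which turn acetyl-CoA into farnesyl diphosphate, held 2 of the 3 genes that fell. Idi1, the isomerase of isopentenyl diphosphate (ENSMUSG00000058258.14, chromosome 13 of GRCm38, 8885501 to 8892451), gave 87.1, 81.8 and 77.0 CPM in sgControl (replicates 1 to 3) against 67.0 and 63.8 CPM in sgMef2d. The groups did not overlap. Idi1 averaged 82.0 ± 5.03 CPM in sgControl (SD, n = 3) and 65.4 ± 2.22 CPM in sgMef2d (SD, n = 2). In the fit Idi1 fell by 20.3%, or -0.33 on the log2 scale (SE 0.071, edgeR adjusted p = 0.0169). The call was lost without sgControl replicate 2 (edgeR adjusted p = 0.0538) and without either sgMef2d library. Of the 50-base words in the transcripts of Idi1, 17.7% also occur in other genes, most often in the pseudogene Gm13502.

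Hmgcs1, the cytosolic HMG-CoA synthase (ENSMUSG00000093930.2, chromosome 13, 119690379 to 119708260), carries the SREBP motif shown above in its promoter. In sgControl it had the highest level per exonic length of the 29 genes. It gave 225, 229 and 234 CPM in sgControl (replicates 1 to 3) against 200 and 195 CPM in sgMef2d. The groups did not overlap, and the sgControl libraries lay close together. Hmgcs1 averaged 229 ± 4.65 CPM in sgControl (SD, n = 3) and 197 ± 3.08 CPM in sgMef2d (SD, n = 2). In the fit Hmgcs1 fell by 13.9%, or -0.22 on the log2 scale (SE 0.0555, edgeR adjusted p = 0.0364). Without sgControl replicate 2 or 3, its adjusted p in edgeR was 0.133 and 0.10, and the call was also lost without either sgMef2d library. Its exons overlap the antisense gene Gm48342 over 12.1% of their length, and Gm48342 had 5 to 14 counts in a library.

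The other 5 mevalonate genes had log2 fold changes between -0.17 and -0.07, and 0 of the 5 passed in the main edgeR fit, DESeq2 or limma-voom, or had an unadjusted p below 0.05 in that edgeR fit. With trends of transcript length and GC content removed, Pmvk was at -0.27 and passed (edgeR adjusted p = 0.0289). The rest of the 5 then lay between -0.165 and -0.139 without passing. Pmvk, phosphomevalonate kinase, had a log2 fold change of -0.17 (95% interval -0.35 to 0.01), Acat2, the cytosolic thiolase that starts the pathway, of -0.12 (-0.26 to 0.03), and Fdps, farnesyl diphosphate synthase, of -0.11 (-0.24 to 0.03). In these 3 genes and in Mvk, mevalonate kinase (-0.07, -0.22 to 0.09), both sgMef2d libraries lay below all sgControl libraries. Without sgControl replicate 1, Fdps was at -0.069 and Mvk at -0.0429 on the log2 scale. Mvd, the decarboxylase of mevalonate diphosphate, had a log2 fold change of -0.07 with overlapping groups, and of -0.0075 without sgControl replicate 1. Of the 50-base words of Acat2, 39.1% are shared with its neighbour Acat3, which had 51 to 73 counts in a library, and 26.2% of those of Fdps with other genes, so the authors' counting could have split or dropped their reads. Summed over the 7 genes, the sgControl libraries gave 679, 664 and 646 CPM and the sgMef2d libraries 591 and 590 CPM, 11.0% lower in the mean. Ggps1, which makes geranylgeranyl diphosphate for protein prenylation, reached between 34.9 and 40.1 CPM in sgControl and 37.5 and 32.6 CPM in sgMef2d, with a log2 fold change of -0.12 (95% interval -0.32 to 0.08), and its groups overlapped. The value for Ggps1 was -0.23 without sgMef2d replicate 1 and -0.0259 without sgMef2d replicate 2. Arid4b, whose exons lie opposite 5.44% of those of Ggps1, was itself called lower (log2 change -0.31).

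The sterol steps, from squalene to cholesterol, had log2 fold changes below 0 in 10 of 11 genes, with a median of -0.10, and 0 of the 11 passed in edgeR's test. At an unadjusted p below 0.05, 3 were lower (Sc5d, Lss and Sqle), where 12.0% of all genes were, and DESeq2 and limma-voom also called 0 of the 11. Sc5d, the sterol desaturase near the end of the pathway, reached between 60.7 and 63.5 CPM in sgControl and 53.5 and 53.0 CPM in sgMef2d, a log2 fold change of -0.21 (95% interval -0.36 to -0.07, edgeR adjusted p = 0.0708). Lss, lanosterol synthase, reached between 82.1 and 84.0 CPM in sgControl and 73.2 and 73.7 CPM in sgMef2d, a log2 fold change of -0.18 (-0.31 to -0.05, edgeR adjusted p = 0.0957). Sqle, squalene epoxidase, gave 232, 231 and 245 CPM in sgControl (replicates 1 to 3) against 216 and 209 CPM in sgMef2d, a log2 fold change of -0.15 (-0.28 to -0.02, edgeR adjusted p = 0.143). In all 3 genes the groups did not overlap. Without sgControl replicate 1, the 3 genes passed the threshold with edgeR adjusted p of 0.00264, 0.00339 and 9.24e-04, and 14.8% of all genes were then called lower.

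Msmo1, the sterol methyl oxidase, was also lower in both sgMef2d libraries than in any sgControl library, and here a single library set much of the difference. It gave 201, 166 and 164 CPM in sgControl (replicates 1 to 3) against 156 and 156 CPM in sgMef2d, a log2 fold change of -0.19 (95% interval -0.37 to 8.8e-05). With sgControl replicate 1 left out it was -0.08. Cyp51, the lanosterol demethylase, had a log2 fold change of -0.10 (-0.22 to 0.02) without overlap of the groups. The groups overlapped in Fdft1, the squalene synthase (-0.09), Nsdhl, which takes part in removing the sterol methyl groups (-0.08), Tm7sf2, a sterol reductase (-0.08), Hsd17b7, a ketosterol reductase (-0.04), and Dhcr7, the reductase of the last step (-0.12). With a library left out, Hsd17b7 ranged from -0.11 to 0.0067 and Tm7sf2 from -0.22 to 0.031, so both changed sign, while Fdft1 ranged from -0.13 to -0.0563 and Nsdhl from -0.12 to -0.0492, both smallest in size without sgControl replicate 1. Single libraries moved Dhcr7 to -0.0239 (without sgControl replicate 2), -0.20 (without sgControl replicate 3), -0.027 (without sgMef2d replicate 1) and -0.22 (without sgMef2d replicate 2). Tm7sf2 had 48 to 87 counts in a library and shares 9.87% of its words with Vps51, and 18.3% of the exonic length of Fdft1 lies opposite Ctsb. Ebp, the sterol isomerase, had the opposite sign. It gave 67.6, 69.1 and 70.9 CPM in sgControl (replicates 1 to 3) against 74.3 and 77.1 CPM in sgMef2d, a log2 fold change of 0.13 (95% interval -0.0071 to 0.27, edgeR adjusted p = 0.239). Both sgMef2d libraries lay above all sgControl libraries, but the difference did not pass the threshold. With trends of transcript length and GC content removed, the log2 fold change of Ebp was 0.064. Summed over the 11 genes, the sgControl libraries gave 1077 to 1108 CPM and the sgMef2d libraries 1009 and 1006 CPM, 7.60% lower in the mean. All 19 synthesis genes together gave 1827, 1776 and 1771 CPM in sgControl (replicates 1 to 3) and 1637 and 1628 CPM in sgMef2d, 8.85% lower in the mean and without overlap.

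**Figure D2:**
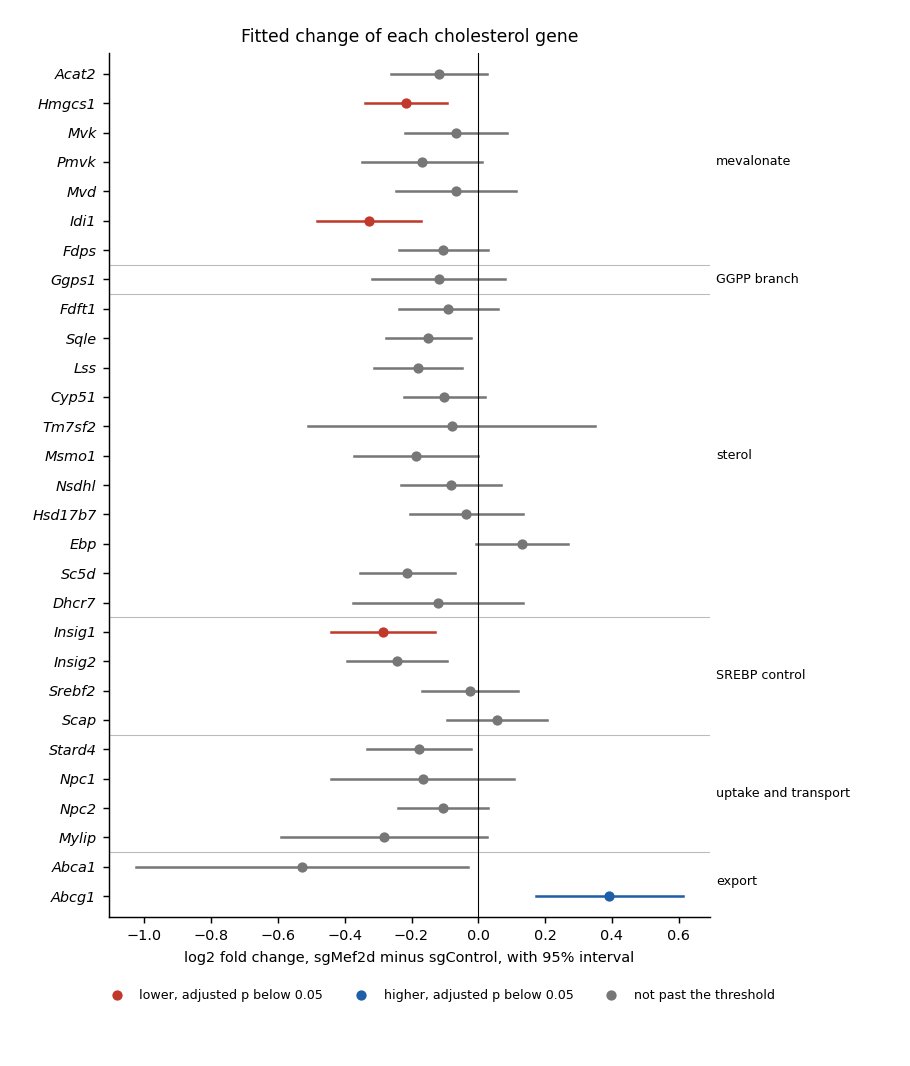
Fitted log2 fold change of each cholesterol gene, sgMef2d minus sgControl (horizontal axis), with its 95% interval from edgeR's quasi-likelihood fit (bars) and grouped by role. Idi1, Hmgcs1 and Insig1 in red were lower and Abcg1 in blue was higher at an adjusted p below 0.05; the intervals of most synthesis genes lie mainly left of 0, and that of Abca1 is wide.

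Among the genes that control SREBP2, both INSIG genes lay below the controls, Insig1 alone past the threshold, and those for SREBP2 itself and its escort overlapped the controls. Insig1, which retains SCAP and is itself raised by SREBP2 (ENSMUSG00000045294.11, chromosome 5, 28071363 to 28078662), gave 73.8, 82.7 and 78.0 CPM in sgControl (replicates 1 to 3) against 65.9 and 62.2 CPM in sgMef2d. The groups did not overlap, although sgControl replicate 1 lay lowest of the controls. Insig1 averaged 78.2 ± 4.43 CPM in sgControl (SD, n = 3) and 64.0 ± 2.66 CPM in sgMef2d (SD, n = 2). In the fit Insig1 fell by 17.9%, or -0.29 on the log2 scale (SE 0.071, edgeR adjusted p = 0.0313). Without sgControl replicate 2 or 3 its edgeR adjusted p was 0.132 and 0.0587, and the call was also lost without either sgMef2d library. Insig2, the second INSIG gene, gave 55.8, 52.5 and 52.5 CPM in sgControl (replicates 1 to 3) against 45.1 and 45.7 CPM in sgMef2d. These groups did not overlap either, but the log2 change, -0.24 (SE 0.069, edgeR adjusted p = 0.0540), just missed the threshold. Insig2 passed in 3 of 15 alternative fits: without sgControl replicate 1 (edgeR adjusted p = 0.00760), with scaling to library totals only (edgeR adjusted p = 0.0471), and with trends of transcript length and GC content removed (edgeR adjusted p = 0.0177). Srebf2, which encodes SREBP2, gave 269, 284 and 305 CPM in sgControl (replicates 1 to 3) against 275 and 288 CPM in sgMef2d, a log2 fold change of -0.02 (95% interval -0.17 to 0.12). Its direction turned in 2 of the 5 fits that left out a library. Scap reached 107, 117 and 121 CPM in sgControl and 116 and 123 CPM in sgMef2d, a log2 fold change of 0.06 (-0.09 to 0.21) that was 0.0034 without sgControl replicate 1. In both genes the sgMef2d libraries lay among or beside the sgControl libraries. The counts do not show how much SREBP2 protein was cleaved.

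The 4 genes of uptake and intracellular transport had log2 fold changes between -0.28 and -0.11, with a median of -0.17, and 0 of them passed in edgeR's test. At an unadjusted p below 0.05 Stard4 was lower (12.0% of all genes were), and DESeq2 and limma-voom called 0 of the 4. Stard4, a cytosolic sterol carrier, gave 71.5, 71.1 and 66.0 CPM in sgControl (replicates 1 to 3) against 64.2 and 58.9 CPM in sgMef2d, a log2 fold change of -0.18 (95% interval -0.33 to -0.02, edgeR adjusted p = 0.158). Npc2, which binds cholesterol in the lysosome, had a log2 fold change of -0.11 (-0.24 to 0.03), and Mylip, a ubiquitin ligase that removes lipoprotein receptors, of -0.28 (-0.59 to 0.03), both without overlap of the groups. Without sgMef2d replicate 1 Mylip was at -0.42 and Npc2 at -0.07 on the log2 scale. Without sgMef2d replicate 2 Mylip was at -0.18 and Npc2 at -0.15. Npc1, which moves cholesterol out of the lysosome, had overlapping groups and a log2 fold change of -0.17 (-0.44 to 0.11). It reached 20.8 and 16.4 CPM in sgMef2d replicates 1 and 2, and without the first of these libraries its log2 fold change was -0.36, without the second -0.02.

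Of the export pumps, Abcg1 rose and Abca1 did not pass the test. Abcg1, which exports sterols to lipoproteins (ENSMUSG00000024030.7, chromosome 17, 31057675 to 31117988), gave 13.8, 15.7 and 15.5 CPM in sgControl (replicates 1 to 3) against 19.4 and 19.9 CPM in sgMef2d. The groups did not overlap. Abcg1 averaged 15.0 ± 1.02 CPM in sgControl (SD, n = 3) and 19.6 ± 0.356 CPM in sgMef2d (SD, n = 2). In the fit Abcg1 rose by 31.2%, or 0.39 on the log2 scale (SE 0.10, edgeR adjusted p = 0.0352). The call was lost in DESeq2 (adjusted p = 0.0933) and, in the quasi-likelihood test, without sgControl replicate 2 (adjusted p = 0.0656) or 3 (adjusted p = 0.0513) or either sgMef2d library. Abca1, which loads cholesterol onto apolipoproteins, gave 5.66, 9.36 and 9.45 CPM in sgControl (replicates 1 to 3) against 5.12 and 5.93 CPM in sgMef2d. sgControl replicate 1 lay between the sgMef2d libraries, so the groups overlapped. The log2 fold change of Abca1 was -0.53 (95% interval -1.02 to -0.03, edgeR adjusted p = 0.189), and without sgControl replicate 1 it was -0.77 with an edgeR adjusted p of 1.46e-04. Mylip, the LXR target of the list besides the pumps, also had a fitted change below 0. It did not pass the test, and Abcg1 went the other way.

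**Figure D3:**
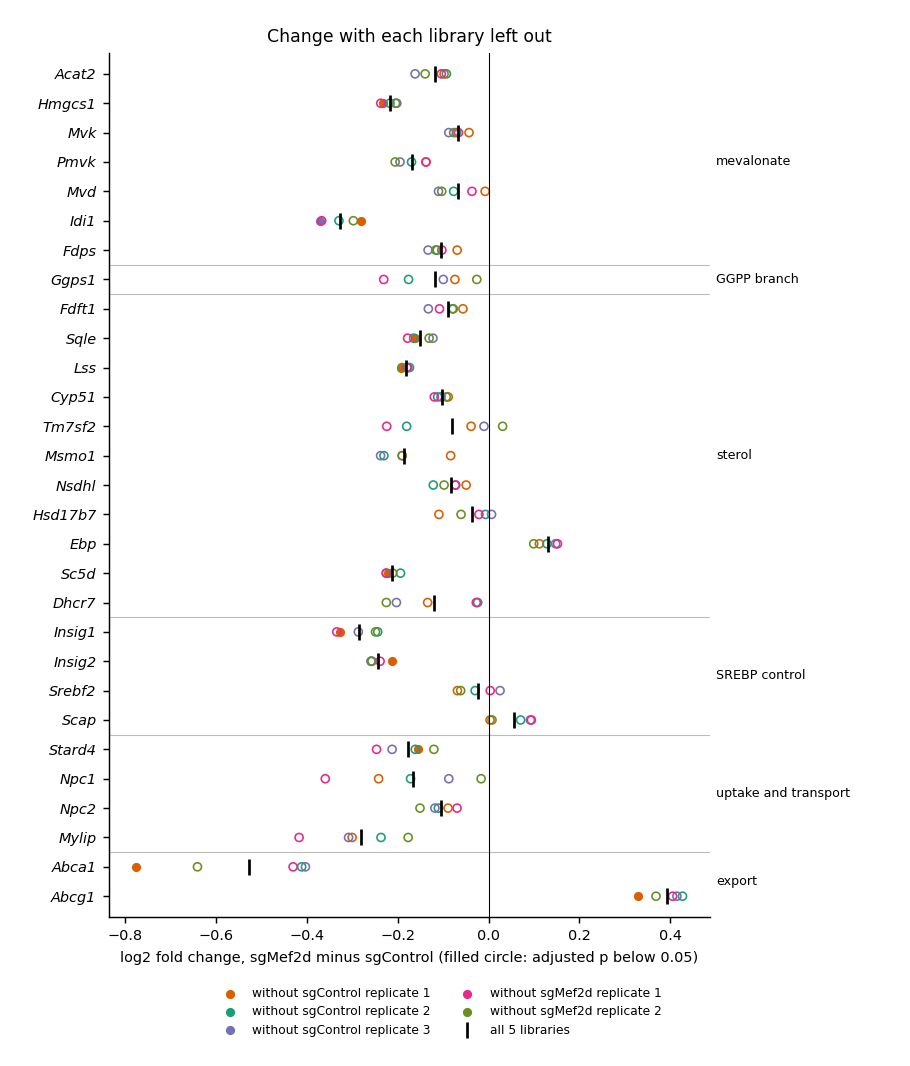
Fitted log2 fold change of each cholesterol gene, sgMef2d minus sgControl (horizontal axis), with each of the 5 libraries left out in turn (coloured circles, filled where the adjusted p was below 0.05) and with all 5 libraries (black bars). Without sgControl replicate 1, 10 circles are filled, and Abca1 moves from -0.53 to -0.77; Idi1 is the only gene filled in any other setting, without sgControl replicate 3.

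Levels differed widely between the 29 genes. As RPKM, the CPM divided by the exonic length in kilobases, the mean sgControl level ran from 0.787 RPKM for Abca1 to 49.9 RPKM for Hmgcs1, with a median of 17.0 RPKM. Hmgcs1 (49.9 ± 1.01 RPKM, SD, n = 3), Cyp51 (48.0 ± 0.781 RPKM, SD, n = 3) and Sqle (42.6 ± 1.42 RPKM, SD, n = 3) stood first, and Srebf2 followed at 39.8 ± 2.58 RPKM. The difference between Sqle and Srebf2 was smaller than the sum of their SDs. Idi1 (23.4 RPKM), Insig1 (25.3 RPKM) and Nsdhl (22.7 RPKM) lay near each other in the middle, and Mylip, Abcg1, Npc1, Tm7sf2 and Abca1 were lowest, all below 3 RPKM. The coefficient of variation over the sgControl libraries had a median of 5.50% and ranged from 1.22% in Lss to 26.6% in Abca1. Among the sgControl libraries, replicate 1 was the highest in 13, the lowest in 10 and the middle in 6 of the 29 genes. Among the 19 synthesis genes it was the highest in 10 and the lowest in 4, and among all 12483 genes tested the highest in 4863 and the lowest in 4930.

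Other genes of the pathway, from a list of 61, were read beside these, and 53 of them were tested. Their fitted changes were spread evenly, with 24 below and 29 above 0 and a median of 0.02 on the log2 scale. In this list 1 was called lower and 1 higher, both among the fatty acid targets of SREBP, against 4.28% and 3.67% of all genes. The groups did not overlap in 11 genes that were lower and 9 that were higher, against 20.5% and 20.6% of all genes tested. In the genes that process or degrade the SREBP system, 4 of 8 had fitted changes below 0 (median -0.0080), in those that use isoprenoids for prenylation, dolichol and coenzyme Q 3 of 10 (median 0.03), in other genes of uptake, transport and storage 7 of 14 (median 0.0076), in the remaining sterol enzymes 3 of 4 (median -0.03), and in the LXR and export genes 2 of 7 (median 0.11). In these 5 groups 0 genes passed in edgeR's test, and 0 by limma-voom or DESeq2. At an unadjusted p below 0.05, 2 of their 43 genes were lower and 2 were higher, against 12.0% and 11.2% of all genes. Without sgControl replicate 1, 10 of the 53 genes were called lower and 4 higher, where 14.8% and 14.6% of all genes were.

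Of the 10 fatty acid genes, Acss2, which makes cytosolic acetyl-CoA from acetate, gave 5.07, 4.82 and 5.64 CPM in sgControl (replicates 1 to 3) against 2.71 and 3.50 CPM in sgMef2d, and it fell (log2 change -0.74, SE 0.19, edgeR adjusted p = 0.0369). Fads2, a fatty acid desaturase, reached 197, 205 and 212 CPM in sgControl and 242 and 244 CPM in sgMef2d, and it rose (log2 change 0.25, SE 0.057, edgeR adjusted p = 0.0209). In both genes the groups did not overlap. The call of Acss2 was lost in DESeq2 (adjusted p = 0.0871), and in edgeR without sgControl replicate 2 (adjusted p = 0.0630) or 3 (adjusted p = 0.0795) or either sgMef2d library. Fads2 lost its call in edgeR without sgControl replicate 2 (adjusted p = 0.0879) or either sgMef2d library.

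**Figure D4:**
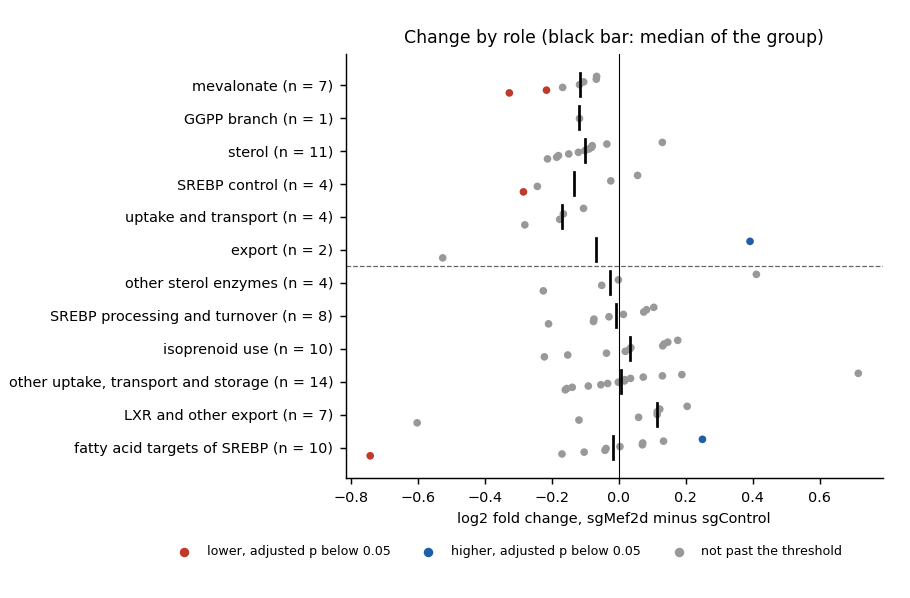
Fitted log2 fold changes, sgMef2d minus sgControl (horizontal axis), of the 29 cholesterol genes by role (above the dashed line) and of 53 other genes of the pathway (below it), with a point for each gene and a black bar for the median of each group. The medians of the synthesis, SREBP control and transport groups lie between -0.17 and -0.10, and those of the groups below the line between -0.03 and 0.11.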

How the data were processed

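RNA-seq counts of 3 sgControl and 2 sgMef2d libraries of EpH4 cells were analysed. The authors aligned poly(A)-selected, strand-marked reads with STAR2 to GRCm38, and the submitters' processing notes also name CASAVA and Subread. Whether counting used the strand is not given in the sources used here. The deposited values are raw counts per gene without normalization, and low genes had been removed by the authors: each of the 12934 genes reached at least 11 counts in a library. Gene identifiers were matched without version to GENCODE M21 (12934 of 12934).

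From these counts, genes were kept by edgeR's expression filter (12483 genes), normalized by TMM (factors 0.996 to 1.00) and tested with the bias-adjusted quasi-likelihood test of edgeR 4.0.16 in R 4.3.3, all libraries, no covariate, with Benjamini-Hochberg adjustment over all genes and a threshold of 0.05. The scripts were tested on simulated counts. Alternatives were other scalings, filters and tests (DESeq2 1.42.0, limma-voom 3.58.1), removal of trends with transcript length and GC content (loess, span 0.3), a block for the replicate number and omission of each library in turn, and the count of genes without overlap was also taken without each library, a choice made after seeing the data. The members and lists were chosen with earlier results of these data known. All members are named; values per library are given for genes past the threshold, the SREBP control genes, the export pumps and examples chosen after their values were seen. Of the other pathway genes, only those past the threshold are named. Promoters were shown for the gene with the SREBP motif, Hmgcs1, and for Abca1, and those of Idi1 and Insig1 were added after their calls were seen. All sample columns were used. PCR copies could not be recognized, so the intervals hold only the error that the counts and libraries show.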

Additional observations from a re-analysis of the deposited data

How the results depend on the processing

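The direction of the fitted change held for 29 of the 32 genes followed (the 29 cholesterol genes, Acss2, Fads2 and Mef2d) in all 15 alternatives, and of 480 comparisons 437 kept their direction and side of the threshold. Hsd17b7 turned to a log2 fold change of 0.0147 with the length and GC trend removed and 0.0089 with the replicate block, Tm7sf2 to 0.0040 and Srebf2 to 0.0256 with the block, and with a library left out these 3 ranged from -0.11 to 0.0067, from -0.22 to 0.031 and from -0.0685 to 0.0254. The cholesterol genes called lower numbered 3 with all libraries, 4 with library totals only (Insig2 was added), 5 with the length and GC trend removed (Pmvk and Insig2 were added), and 0 to 9 with a library left out. Those called higher numbered 1, but 0 under DESeq2 and 0 to 1 with a library left out. The other pathway genes called lower numbered 1, but 0 under DESeq2 and 0 to 10 with a library left out, and those called higher numbered 1, but 2 with the length and GC trend removed, 2 with the replicate block and 0 to 4 with a library left out. Over all genes 992 were called, 989 with library totals only, 1421 with the length and GC trend removed, and 234 to 3639 with a library left out, the highest without sgControl replicate 1. With an sgMef2d library left out, the remaining one is assumed to vary like the sgControl libraries. The median log2 fold change of the 19 synthesis genes was -0.12 and stayed between -0.14 and -0.09. The genes without overlap numbered 16 lower and 2 higher, and 19 to 20 lower and 2 to 3 higher with a library left out, a number that cannot fall when libraries are removed. The replicate numbers 1 and 2 occur in both groups, but the deviations of same-numbered libraries from their group means had correlations of 0.01 and -9.2e-04 across genes, so the numbers were not taken to pair the libraries. The replicate block, in which sgControl replicate 3 has no partner and 1 residual degree of freedom is left, gave 1254 calls over all genes, 2 cholesterol genes lower (Idi1 and Insig1, adjusted p = 8.02e-04 and 0.0181 from edgeR's quasi-likelihood test; Hmgcs1 0.110) and 1 higher (Abcg1, 0.0127). Among the 29 cholesterol genes depth was lowest for Tm7sf2, with 48 to 87 counts in a library, and Acss2 had 46 to 104 counts.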
